A study of Mus musculus with 2 samples.

Results

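Zinc finger protein genes made up 25 of the 886 genes that the authors listed as different between mouse embryonic stem cells overexpressing Prdm14 and control cells. The 25 were taken by name: symbols starting with Zfp, Zbtb, Zkscan, Zscan, Zfhx, Zic, Zbed, Zc3h, Zmat or Zcchc, without Zfp42 and the Zscan4 genes. Both groups were 46C cells, which are mouse embryonic stem cells carrying a fluorescent reporter at the Sox1 gene, grown in serum-containing medium with the cytokine LIF. The control group overexpressed the Flag tag alone (PB_Flag) and the other group Prdm14 (PB_Prdm14), a regulator of pluripotency that itself carries zinc fingers. The labels give 1 sample per group and list the tissue as embryo. In the series' design text, by contrast, the tagged gene is gadd45g.

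Zinc fingers are short protein folds held by a zinc ion between cysteine and histidine residues. In the common C2H2 form a pair of cysteines and a pair of histidines hold the ion, and tandem fingers read DNA; the CCCH form of the Zc3h proteins mostly binds RNA. Many Zfp proteins also carry a KRAB domain, which recruits the corepressor Trim28 and, in embryonic stem cells, silences transposable elements. Zbtb proteins pair fingers with a BTB dimerisation domain, and Zic proteins are relatives of the Gli factors that act in the early neural plate.

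The coding DNA of 1 finger from each of 4 of the genes is shown because it is the unit that names the group. The letters come from the GENCODE M21 transcripts. Capitals mark the cysteine and histidine codons at the fixed positions of the finger pattern. Other cysteine codons, as in Zfp59, are in lower case.
Zfp59, codons 174 to 194: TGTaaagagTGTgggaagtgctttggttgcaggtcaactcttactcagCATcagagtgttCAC
Zfp423, codons 148 to 168: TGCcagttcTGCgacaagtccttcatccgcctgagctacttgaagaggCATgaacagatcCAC
Zic2, codons 334 to 356: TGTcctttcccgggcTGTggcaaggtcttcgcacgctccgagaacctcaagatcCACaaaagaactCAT
Zc3h12a, codons 306 to 322: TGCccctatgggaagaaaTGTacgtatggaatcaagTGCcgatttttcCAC
The Zfp59 and Zfp423 fingers have the same spacing, with 4 capital codons over 63 bases. The Zic2 finger is longer, at 69 bases, and the Zc3h12a finger, with 3 cysteine codons and 1 histidine codon, is 51 bases long.

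Each value is the authors' mean TPM (transcript abundance scaled by length and library), 1 mean per condition. How many libraries went into a mean is not stated, read depth is unknown and no SD could be computed, so no difference has a replicate check. Genes are called higher or lower by their level in Prdm14 cells. Prdm14 itself went from 3.296 to 399 TPM, and Gadd45g from 21.6 to 3.57 TPM, as the sample labels have it and not as the design text does. Of 8 embryonic stem cell markers 5 were listed, all higher: Klf4, Zfp42, Nanog, Esrrb and Tfcp2l1. Their summed mean was 468 TPM in Flag and 1351 TPM in Prdm14 cells. The others, Pou5f1, Sox2 and Dppa3, were not listed and have no value here. All 4 primed epiblast markers (Fgf5, Otx2, Pou3f1 and Dnmt3b) were listed and lower (summed mean 1513 and 198 TPM). Of 4 primitive endoderm markers 1 was listed, Dab2, at 17.9 and 1.53 TPM. None of 4 fibroblast feeder markers (Col1a1, Col1a2, Thy1 and Vim) was listed, so they have no value here. The part of these marker differences in the values that follow was not tested. In bulk samples, fewer cells with a transcript and less transcript per cell cannot be told apart.

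Of the 25 listed zinc finger genes, more were higher than lower in Prdm14 cells. In the authors' deposited table, 17 of these genes had the larger mean in Prdm14 cells and 8 in Flag cells. So 68.0% were higher, against 52.8% of all listed genes, and 8 of 25 were lower, against 47.2% of all listed genes. The exact binomial 95% interval of the 68.0% runs from 46.5% to 85.1% and holds the share of the table. It treats the 25 genes as independent draws, which neighbours such as Zic2 and Zic5 may not be, so no conclusion is drawn from it. The median log2 fold change was 1.19 over the 25 and 1.03 over the table. Because the table holds only genes that differ at least 2-fold, no log2 value lies between -1 and 1, and a median over both directions mainly shows which one is commoner. Within each direction the sizes were near those of the table: the median fold was 2.80 among the 17 higher genes (2.56 over all higher listed genes) and 2.99 among the 8 lower genes (3.03 over all lower listed genes). Differences of at least 4-fold were found in 2 of the 25, against 25.1% of the listed genes. The 2 were Zfp800, higher, and Zfp608, lower. The other 16 higher genes lay between 2.03-fold and 3.69-fold and the other 7 lower genes between 2.004-fold and 3.56-fold.

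**Figure D1:**
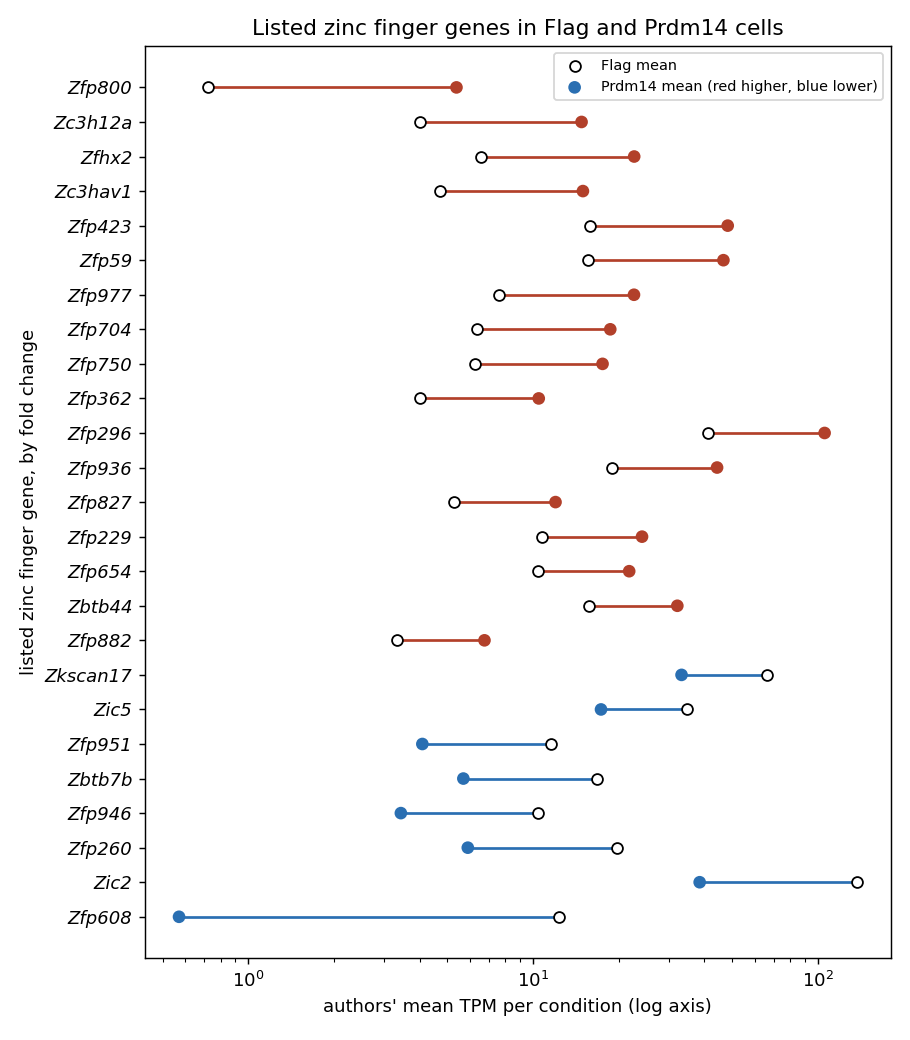
Authors' mean TPM (log axis) of the 25 zinc finger genes in Flag cells (open circles) and Prdm14 cells (filled circles), joined by a line for each gene, red where higher and blue where lower in Prdm14 cells, in order of fold change. The plot shows 17 red and 8 blue lines, with the longest for Zfp608 (12.4 to 0.57 TPM) and Zfp800 (0.722 to 5.38 TPM).

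The levels were moderate. In the authors' deposited table the 25 genes had a median of 10.8 TPM in Flag cells and 17.5 TPM in Prdm14 cells, against 9.15 and 10.1 TPM over all listed genes. Only Zic2, Zfp296 and Zkscan17 reached 50 TPM in either condition. All 8 lower genes had a Flag mean over 10 TPM, as did 254 of the 418 lower genes of the whole table (60.8%). Of the 17 higher genes, 7 did. This split at 10 TPM was chosen after the values were seen. The larger mean of every listed gene is at least 5.01 TPM, so a gene under 5 TPM in Flag cells could enter the table only as higher. The authors' q-values of the 25 ranged from 1.12e-68 (Zic2) to 0.0243 (Zfp229).

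The Zic genes were both lower. Zic2, a factor of forebrain and neural tube development, had the highest level of all 25 genes, 137 TPM in Flag cells and 38.5 TPM in Prdm14 cells, 3.56-fold lower in the authors' deposited table. Zic5, which acts in neural tube closure, went from 34.8 to 17.3 TPM, 2.01-fold lower and close to the 2-fold limit of the table. The 2 genes are neighbours on chromosome 14 that point away from each other, with 9.8 kb between their annotated starts, so they may not be independent. Zic2 (ENSMUSG00000061524) spans 122475435 to 122479852 on the plus strand of mm10. Of 5 Zic genes in the annotation, these 2 were listed; the other 3 have no value here.

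Zfp and Zfhx genes with no KRAB box pattern in their coding sequence included both differences of at least 4-fold. Zfp608 (ENSMUSG00000052713, chromosome 18, 54888048 to 54992555, minus strand), whose product is known in mouse thymocytes to repress the Rag genes, had the largest difference of the 25. Its mean was 12.4 TPM in Flag cells and 0.57 TPM in Prdm14 cells, 21.7-fold lower, and 8.51-fold lower after adding a pseudocount of 1 TPM to both means. It ranked 21st from the lowest log2 fold change among the 886 genes. Zfp800 (ENSMUSG00000039841, chromosome 6, 28239927 to 28398005, minus strand) was at 0.722 TPM in Flag cells and 5.38 TPM in Prdm14 cells, 7.45-fold higher, and 3.70-fold with a pseudocount of 1. Zfp800 ranked 15th from the highest. Both genes share exon bases with a gene on the other strand, Gm26742 for Zfp608 and 6530409C15Rik for Zfp800. Whether the authors counted by strand is not given in the sources used here.

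Zfp423 and Zfp296 were the most abundant higher genes outside the KRAB set. Zfp423, a protein with many fingers that binds Smad and Ebf factors and takes part in BMP responses, was at 15.8 TPM in Flag cells and 48.3 TPM in Prdm14 cells, a 3.05-fold difference in the authors' deposited table. Zfp296, known in mouse as a factor that promotes reprogramming to pluripotency, went from 41.2 to 105.7 TPM, 2.56-fold higher. A share of 10.8% of the Zfp296 transcript words of 50 bases also occurs in other genes, most often in its neighbour Gemin7, whose exons overlap it on the other strand. Zfp423 shared no such word with any other annotated gene.

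Other genes of this set were higher from lower levels. Zfhx2 (ENSMUSG00000040721, chromosome 14, 55060262 to 55092324, minus strand), which joins homeodomains to zinc fingers, went from 6.54 to 22.7 TPM, 3.47-fold higher. Its antisense gene Zfhx2os overlaps its exons, and 17.0% of its 50-base words also occur in other genes. Zfp704 went from 6.36 to 18.7 TPM (2.94-fold), and 16.5% of its words are shared, mostly with the overlapping C030034L19Rik. Zfp750, a regulator of epidermal differentiation, went from 6.26 to 17.5 TPM, 2.80-fold higher. Zfp362, a relative of the nematode developmental timing factor LIN-29, went from 4.02 to 10.5 TPM, 2.604-fold higher. Zfp827, which in human cells recruits the NuRD remodelling complex to telomeres, went from 5.26 to 11.99 TPM, 2.28-fold higher. Zfp654 went from 10.4 to 21.8 TPM, 2.096-fold higher. These 6 had Flag means of at most 10.4 TPM.

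Zfp260 was the other lower gene of the set. Zfp260 (ENSMUSG00000049421, chromosome 7, 30094777 to 30107622, plus strand), known as a transcription factor of heart muscle, went from 19.7 to 5.898 TPM, 3.34-fold lower in the authors' deposited table. It shares 1.08% of its 50-base words with other genes.

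Genes whose coding sequence carries a KRAB box pattern were higher in 5 of 7 cases (71.4%). Of the 18 zinc finger genes of the naming rule without the pattern, 12 were higher (66.7%), and of all listed genes 52.8%. Zfp59 went from 15.6 to 46.6 TPM, 2.98-fold higher, Zfp977 from 7.62 to 22.6 TPM, 2.97-fold, and Zfp936 from 19.01 to 44.3 TPM, 2.33-fold. Zfp229 went from 10.8 to 24.1 TPM, 2.24-fold higher, and Zfp882 from 3.33 to 6.75 TPM, 2.03-fold. Zfp946 went from 10.4 to 3.43 TPM, 3.04-fold lower, and Zfp951 from 11.5 to 4.08 TPM, 2.82-fold lower. None of the 7 differed 4-fold, against 25.1% of all listed genes. Of the other listed genes, Gm14325 (9.73 to 20.5 TPM) and D3Ertd254e (4.19 to 8.58 TPM) also carry the pattern and were higher. By this pattern, whatever the name, 7 of 9 listed genes were higher and 2 lower. The annotation holds 303 protein-coding genes with both a KRAB box pattern and a C2H2 finger, of which these 9, 2.97%, were listed, against 3.79% of all protein-coding genes. The pattern can miss KRAB boxes. Zkscan17, which is named for KRAB and SCAN domains and was lower, did not match it and is counted among the genes without it.

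Some of the KRAB genes share sequence with other genes, and their values are uncertain. In Zfp59, 52.4% of the 50-base words occur in other genes, most often in Gm7452. Zfp936 shares 15.6% of its words, most often with Zfp975, and Zfp977 shares 8.47%, most often with Zfp936. Zfp977 and Zfp936 have their starts within 1 Mb of each other on chromosome 7, and both were higher. Zfp229 and Zfp946 are within 1 Mb of each other on chromosome 17 and went in opposite directions, with 18 and 17 genes of the same name families around them; they share 1.43% and 1.75% of their words with other genes. Zfp951 has no gene of these names within 1 Mb and shares 1.63% of its words. Zfp882 shares 4.15% of its words and has exon bases in common with Zfp617 on its own strand.

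BTB and SCAN type genes went both ways. Zbtb7b, known as ThPOK, which directs T cells to the helper lineage, went from 16.8 to 5.69 TPM, 2.94-fold lower in the authors' deposited table, and overlaps Gm15417 on the other strand. Zbtb44 went from 15.7 to 32.1 TPM, 2.04-fold higher. Zkscan17, known as Nizp1 for its binding to the histone methyltransferase Nsd1, went from 66.6 to 33.2 TPM, 2.004-fold lower, the smallest difference of the 25. Zkscan17 shares 11.2% of its 50-base words with other genes, most often with 4933439C10Rik, which overlaps it on the other strand.

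The 2 CCCH genes were both higher. Zc3h12a (ENSMUSG00000042677, chromosome 4, 125118423 to 125127840, minus strand) encodes Regnase-1, a ribonuclease that degrades messenger RNAs of inflammatory genes. Its mean was 4.01 TPM in Flag cells and 14.8 TPM in Prdm14 cells, 3.69-fold higher. Zc3hav1, also called ZAP, an antiviral protein that binds CpG-rich RNA, went from 4.72 to 14.97 TPM, 3.17-fold higher. Both started under 5 TPM, the range in which only an increase could be listed, and neither shares exon bases with another gene.

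**Figure D2:**
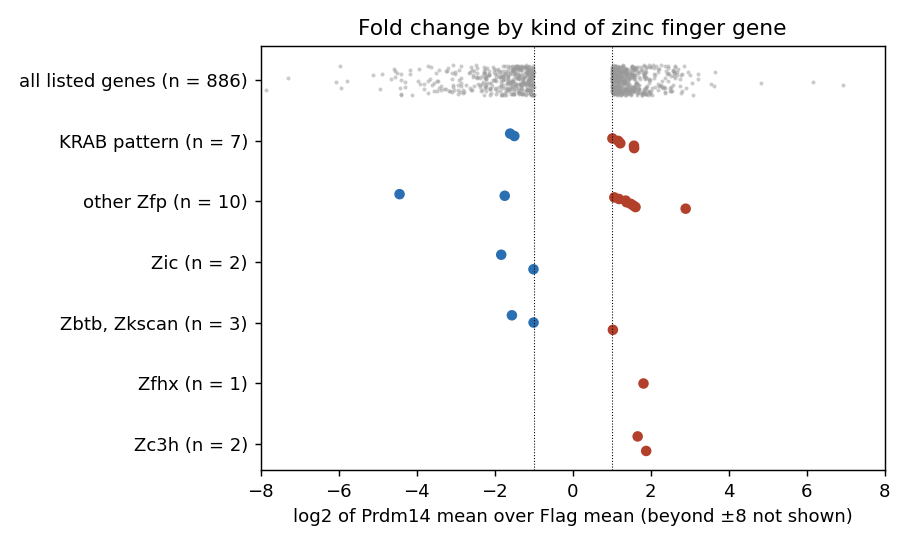
Log2 of the Prdm14 mean over the Flag mean for all 886 listed genes (grey, spread vertically at random; 8 genes beyond 8 on either side are not shown) and for the zinc finger genes by kind (red higher, blue lower). Dotted lines mark the 2-fold limits of the table; both Zic genes lie on the left, and both Zc3h genes and Zfhx2 on the right.

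Most of the 25 genes came from the Zfp family. The annotation holds 509 protein-coding genes under the naming rule, of which 25, 4.91%, were listed, against 3.79% of all 21951 protein-coding genes. These were 17 of 396 Zfp genes (4.29%), 2 of 41 Zbtb (4.88%), 1 of 11 Zkscan, 1 of 3 Zfhx, 2 of 5 Zic and 2 of 20 Zc3h genes. The counts outside Zfp are too small to compare the rates of families. No gene of the Zscan (other than Zscan4), Zbed, Zmat or Zcchc names was listed. No value is at hand for the unlisted ones, which may or may not differ. Zfp42 and the listed Zscan4c, Zscan4e and Zscan4f, left out by the rule, were all higher; with them the count is 21 higher and 8 lower.

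Genes with few and with many fingers were found in both directions. By a pattern of spaced cysteines and histidines in the longest annotated coding sequence, the 25 genes held from 0 to 27 C2H2 fingers, the most in Zfp423. Of the 10 genes with at least 10 fingers, 7 were higher and 3 lower, and of the 12 with 1 to 9 fingers, 7 were higher and 5 lower. None of these 10 genes with at least 10 fingers differed 4-fold, against 25.1% of all listed genes. The 3 genes with none by this pattern, Zc3h12a, Zc3hav1 and Zfp750, were all higher. Of all listed genes 52.8% were higher. Whatever the name, 31 of the 45 listed genes with at least 1 finger by this pattern were higher (68.9%). The pattern misses fingers with longer loops, and it counted 3 in each Zic gene.

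**Figure D3:**
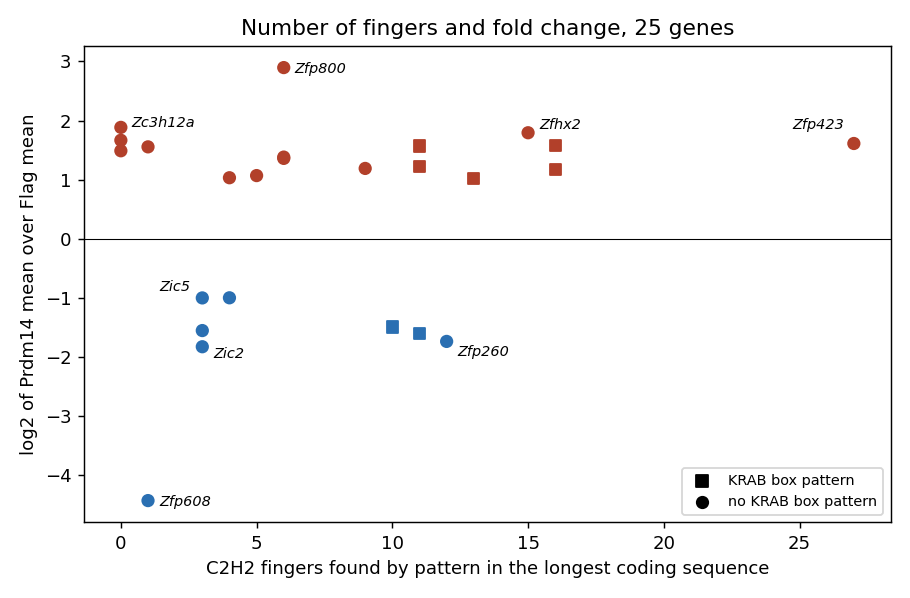
Number of C2H2 fingers found by pattern (horizontal) against log2 of the Prdm14 mean over the Flag mean (vertical) for the 25 genes, with squares for genes with a KRAB box pattern and circles for the others. Zfp608, with 1 finger, and Zfp800, with 6, stand apart; the 7 squares lie between 10 and 16 fingers on both sides of 0.

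The genes were spread over 12 chromosomes. Chromosome 7 held 5 of them, 4 higher and 1 lower, while 24 of the 70 listed genes there were higher (34.3%). The 4 were Zfp59, Zfp977, Zfp936 and Zfp296, and of these Zfp59, Zfp936 and Zfp296 share over 10% of their 50-base words with other genes. All 3 on chromosome 8, Zfp423, Zfp827 and Zfp882, were higher, as were 51 of the 64 listed genes there (79.7%). None lay on chromosome X.

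Windows around start sites were compared for their CpG content, since CpG-rich promoters are typical of broadly expressed genes. RefSeq windows on GRCm38.p6, from 250 bases before to 50 bases after a start site, were at hand for 19 of the 25 genes, in 23 windows. None was at hand for Zfp608 and Zic2, the lower genes with the largest differences. Windows were also missing for Zfp704, Zfp750, Zfp362 and Zfp654, which were higher. The 15 windows of 13 higher genes had a median of 19 CpG sites and the 8 windows of 6 lower genes a median of 8, against 16 in the 884 windows of listed genes and 7 in all 32851 windows. The ranges overlapped, from 6 to 41 in the higher genes and from 5 to 15 in the lower ones. Windows of 1 gene are not independent. More than 1 window came from Zfp951 and Zbtb7b among the lower genes and from Zfp423 and Zfp800 among the higher ones. The windows of all listed genes were not split by direction, so whether the difference is particular to these genes is unknown. The comparison was chosen after the directions were known and was not tested. Among the higher genes, windows of the KRAB genes Zfp977 and Zfp936 (6 sites each), Zfp229 (8) and Zfp882 (10), and 1 window each of Zfp423 (7) and Zfp800 (14), were within the range of the lower genes.

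Windows are printed for 2 higher genes and, of the lower genes with a window, for the one with the fewest CpG sites, as examples of this spread. Capitals mark each CpG.
Zfp800, chr6:28397956-28398255, minus strand, 14 CpG sites: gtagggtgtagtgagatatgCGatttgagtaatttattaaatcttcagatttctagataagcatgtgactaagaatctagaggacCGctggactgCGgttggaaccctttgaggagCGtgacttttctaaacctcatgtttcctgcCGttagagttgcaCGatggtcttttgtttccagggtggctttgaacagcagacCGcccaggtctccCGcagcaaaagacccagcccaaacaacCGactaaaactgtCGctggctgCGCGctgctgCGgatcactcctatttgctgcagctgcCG
Zfp423, chr8:87959546-87959845, minus strand, 21 CpG sites: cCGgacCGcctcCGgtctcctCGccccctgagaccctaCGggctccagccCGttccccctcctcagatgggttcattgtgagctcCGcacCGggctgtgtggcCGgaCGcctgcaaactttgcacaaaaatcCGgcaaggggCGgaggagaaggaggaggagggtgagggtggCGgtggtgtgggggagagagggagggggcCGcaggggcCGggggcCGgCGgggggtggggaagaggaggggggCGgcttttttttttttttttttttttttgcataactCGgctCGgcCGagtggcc
Zfp260, chr7:30094826-30095125, plus strand, 5 CpG sites: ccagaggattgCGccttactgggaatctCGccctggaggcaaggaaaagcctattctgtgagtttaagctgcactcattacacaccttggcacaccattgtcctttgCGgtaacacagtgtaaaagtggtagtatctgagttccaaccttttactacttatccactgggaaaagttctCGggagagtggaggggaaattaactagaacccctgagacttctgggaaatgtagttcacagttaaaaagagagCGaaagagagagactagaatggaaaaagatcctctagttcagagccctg
A second Zfp800 window, at an inner start site, held 41 sites, and a second Zfp423 window, also at an inner start site, held 7. The letters GTCTCTA, the middle of the sequence that human PRDM14 is known to prefer, were searched on both strands. They occur in 1 of the 23 windows, that of Zfp229 (4.35%), and in 3.30% of all windows of this length.

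**Figure D4:**
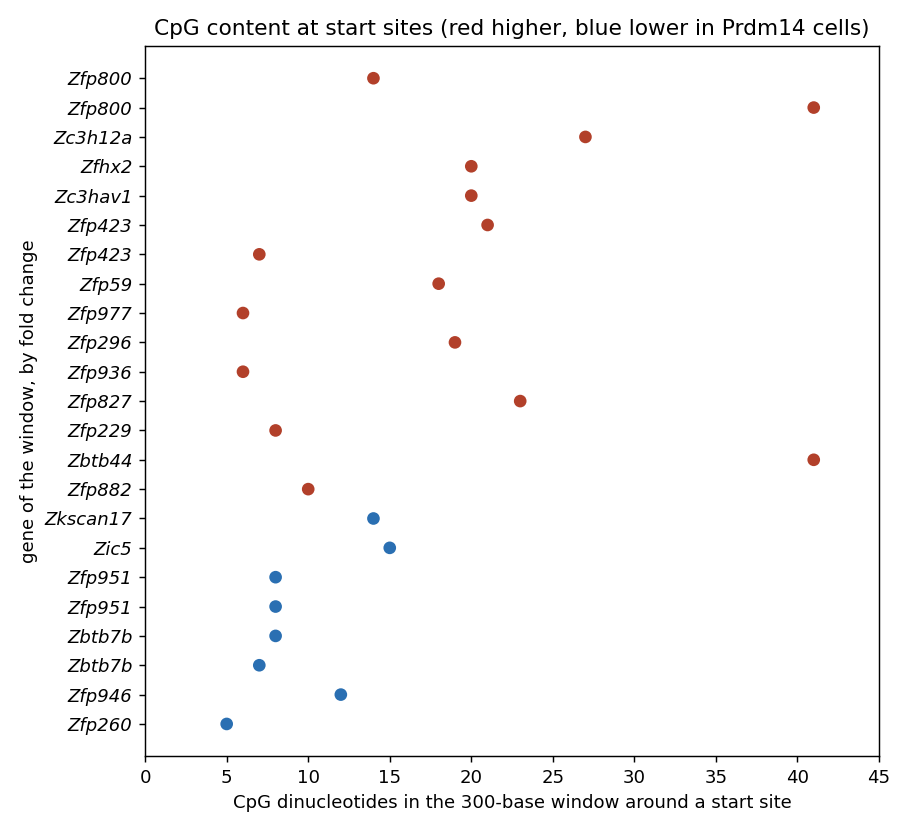
CpG sites in each 300-base RefSeq window around a start site (horizontal) for the 19 genes that have one, in order of fold change from the most decreased at the bottom, red higher and blue lower in Prdm14 cells. Blue points lie between 5 and 15 sites and red points between 6 and 41.

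Related genes outside the naming rule went both ways. Of 114 other C2H2 factor genes, the authors' deposited table lists 13, of which 7 were higher and 6 lower, while 3.79% of all protein-coding genes were listed. Taken by finger pattern and not by this list, 23 listed genes outside the naming rule match the C2H2 pattern at least once. Of these, 17 were higher and 6 lower (73.9% higher). Prdm14, the overexpressed gene, Zfp42 and the 3 Zscan4 genes are among the higher ones. So are Notch4 and Pcsk6, with 1 match each, and a match alone does not show that a protein has a zinc finger. The largest differences in the list were in Sall3, a Sal-like factor (1.698 to 11.5 TPM, 6.80-fold higher), Wt1, a factor of kidney and gonad development (22.6 to 3.92 TPM, 5.77-fold lower), Zeb1 (5.65-fold higher) and Sall2 (48.4 to 8.86 TPM, 5.46-fold lower). Of 30 annotated genes for the silencing partners of KRAB proteins and their heterochromatin, 3 were listed and all were lower, against 47.2% of all listed genes; Dnmt3b among them is also 1 of the 4 primed epiblast markers above. Pphln1, which encodes the HUSH complex subunit periphilin, went from 67.0 to 13.4 TPM, 5.01-fold lower. The others were Dnmt3b (13.1-fold lower) and Dnmt3l (2.86-fold lower), both genes of de novo DNA methylation. With 3 of 30 listed, nothing can be said about the silencing partners as a group. Trim28 and Setdb1, the central corepressors, were not listed and have no value here. Of a chosen set of 38 RNA-binding zinc finger genes under other names, 3 were listed, 1 higher and 2 lower. Of all listed genes 47.2% were lower. Mbnl1, a splicing factor, was 2.12-fold higher. Lin28b, which blocks let-7 maturation, was 2.20-fold lower and Parp12, an interferon-induced ADP-ribosyltransferase, 3.60-fold lower. The set is not complete: Zcrb1 and Znfx1, which it leaves out, were also listed and lower (log2 fold changes of -1.50 and -1.17).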

How the data were processed

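The authors deposited 1 table of selected genes. Per the file headers it holds mean TPM by condition, log2 fold changes, p-values and q-values. The submitters' processing notes name mm10 and Bowtie 0.12.2. How TPM was estimated and which test was run is not given in the sources used here. The deposited log2 values are ratios of the deposited means, Prdm14 over Flag, and so are the folds printed here. All 886 IDs matched a symbol of GENCODE M21, which has the same build; coordinates are 1-based.

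The 25 genes and the lists were chosen with earlier results of these data known. All 25 are named, with coordinates for the 3 largest differences in each direction. With 1 sample per group, nothing was tested. Fingers were counted in the longest coding sequence as cysteine, 2 to 4 residues, cysteine, 12, histidine, 3 to 5, histidine (CCCH: 4 to 15, 4 to 6 and 3 between). The KRAB pattern has 9 fixed positions of box A, of which 2 may differ; of 329 protein-coding genes with it, 303 have a C2H2 finger. The C2H2 counter was tested on simulated sequences with built-in fingers, whose other residues held no cysteine or histidine. The KRAB pattern was tested only on random sequences without a KRAB box. Whether it finds real KRAB boxes was not tested, nor was the CCCH counter. Shared words are 50-base stretches of a gene's transcripts found in another gene's, on either strand. RefSeq proteins were not used here. Python 3.11.15, numpy 2.4.6, pandas 2.3.3, scipy 1.17.1 and matplotlib 3.10.9 were used.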

Additional observations from a re-analysis of the deposited data

How the results depend on the processing

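The count of 17 higher and 8 lower genes and the median of 1.19 kept their direction under all alternatives but one. At a threshold of 2 on the log2 scale, either way, 1 higher and 1 lower gene were left, and their median was -0.77, halfway between Zfp800 and Zfp608. Without genes that share exon bases with another gene, fewer genes were left, 11 higher and 5 lower (68.75% higher, and 51.3% of all listed genes kept by the same rule). The share of higher genes ranged from 63.2% to 72.4% over the alternatives other than the stricter fold. A split by Flag mean was not among these alternatives. Over 10 TPM in Flag cells, 7 of 15 genes were higher (46.7%, against 38.6% of listed genes in that range). At 10 TPM or less, all 10 were higher (against 65.3%). Without chromosomes 8 and X the share of higher genes was 63.6%, against 52.6% of listed genes. Where the larger mean was at least 10 TPM it was 65.2%, against 57.7%.

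Alternatives on fingers, on left-out genes and on shared words were chosen after seeing the data. The median was 1.36 with Zfp42 and the Zscan4 genes and 1.07 without the 6 genes that share over 10% of their 50-base words. Adding 1 TPM to both means lowered the folds of Zfp608 and Zfp800 by more than 1.5 times, and those of the other 23 genes by at most 1.18 times. A selection by RefSeq proteins was not run; with at least 3 fingers in the GENCODE coding sequence, 13 genes were higher and 7 lower (65.0%), against 28 of all 41 listed genes kept by that rule (68.3%), so the share was then not above that of the comparison. No paired analysis was possible because the labels give 1 sample per group and the table holds means only. Depth is unknown, so counting error could not be given.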
